A study of Mus musculus with 19 samples.

Results

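Keratins are intermediate filament proteins of epithelial cells, and 8 of their genes were followed here in mouse tongue epithelium. Krt6a, Krt6b, Krt16 and Krt17 are stress keratins, which squamous epithelia make more of after wounding and in hyperplasia. Krt7, Krt8, Krt18 and Krt19 are keratins of simple epithelia such as ducts and glands. The genes were chosen by name from these families, with earlier results of these data known, and are 8 of the 24689 genes in the expression table. All 8 of 8 passed the expression filter and were among the 22745 genes tested.

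The study switched on the human papillomavirus 16 oncogenes E6-E7, a YAP1 allele carrying S127A, or both, in tongue basal cells of transgenic mice aged 8 to 16 weeks, with littermates balanced for age and sex. Cre came from Krt14-CreERT after tamoxifen was injected into the tongue, and LSL-rtTA then drove the tetON alleles under doxycycline chow. Whole tongue epithelium was taken 15 days after induction and its poly-A mRNA was sequenced, with 1 library per mouse. The groups were N (controls, 5 mice), E (tetON_E6-E7, 5 mice), Y (tetON_YAP1S127A, 3 mice) and EY (both alleles, 6 mice). N mice 1, 2 and 3 carried Krt14-CreERT and LSL-rtTA, N mouse 4 carried LSL-rtTA without Cre, and N mouse 5 carried Krt14-CreERT and both tetON alleles without rtTA. Reads assigned to genes, recovered from the TPM values, had medians of 9638294, 8848805, 8679085 and 9449001 for N, E, Y and EY. These were similar between the groups, while the full sequencing depth was not known.

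Keratin filaments are built from a type II and a type I chain. Krt6a, Krt6b, Krt7 and Krt8 are type II, while Krt16, Krt17, Krt18 and Krt19 are type I. Tongue epithelium is stratified, with Krt5 and Krt14 in its basal layer and Krt4 and Krt13 above, and simple keratins are usually scarce in such tissue outside salivary ducts, taste buds and Merkel cells.

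Tests were made with limma on log2 TPM, and genes with an adjusted p below 0.01 and a log2 fold change beyond 1 in either direction were called DEGs. In EY against N epithelia 3 of 8 keratins were DEGs, all higher, namely Krt17, Krt18 and Krt19 (18.3% of all 22745 genes were DEGs, 12.6% higher and 5.71% lower). Y against N gave 2 of 8, Krt17 and Krt19, both higher (4.58% of all genes were DEGs, 3.47% higher and 1.11% lower). E against N gave 0 of 8 with limma, against 1.2% of all genes (1.16% higher and 0.044% lower), with 2 of 8 (Krt17 and Krt19) at unadjusted p below 0.05 and 0 with limma voom. The share of all genes at unadjusted p below 0.05 was not counted, so such counts, here and below, have no background beside them. For EY, Y and E the median log2 fold changes of the 8 were 2.17, 0.84 and -0.19, beside 0.33, 0.13 and 0.07 for all genes tested. These 3 comparisons share the N mice, so their values are given side by side and do not count as separate evidence. The EY median of all genes went from 0.33 to 0.01 after median-of-ratios scaling, so the sign of a small EY fold change depends on the scaling used. With that scaling the share of DEGs that were higher went from 68.8% to 43.9% in EY against N from 75.8% to 57.2% in Y against N and from 96.3% to 94.9% in E against N. It went from 61.0% to 38.9% in EY against E, from 53.5% to 30.3% in EY against Y and from 67.5% to 56.2% in Y against E.

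**Figure D1:**
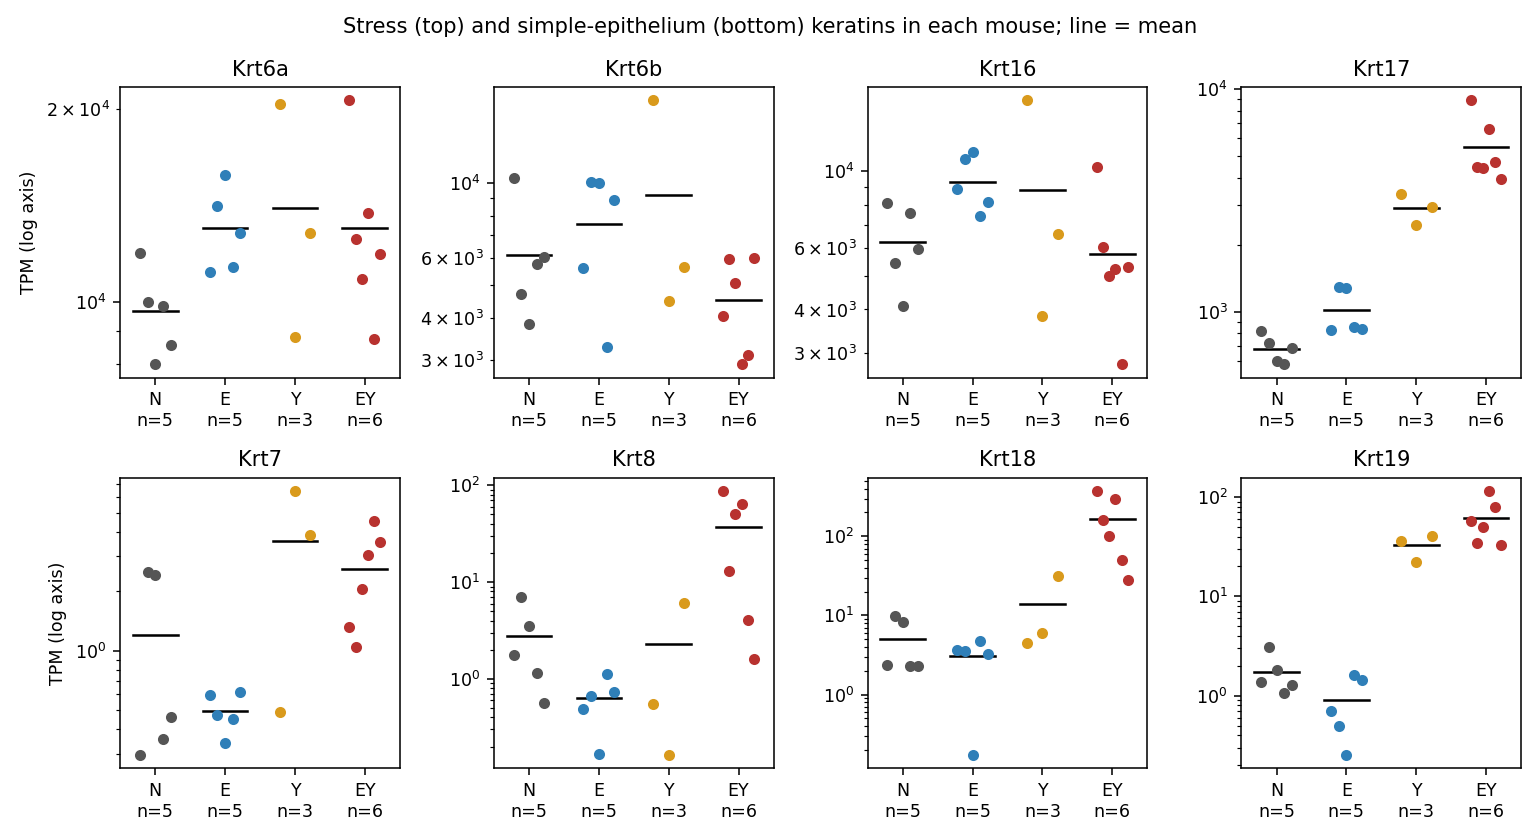
TPM of each of the 8 keratins (log axis) in N, E, Y and EY epithelia, with 1 dot per mouse and a line at the group mean. Group means of Krt17 were 683, 1016, 2931 and 5502 TPM (N, E, Y, EY).

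Genes tied to the alleles were checked beside the keratins. Ccn1, a YAP target, rose in EY (log2 fold change 1.84) and Y (1.66) but not in E (-0.20), with N as the reference each time. Cdkn2a, which increases when E7 inactivates RB, rose in EY (1.88) and had 2.01 in E with an adjusted p of 0.0311. Mcm2, an E2F target, rose in EY (1.73) and had 0.96 in E, just under the fold change limit (adjusted p 0.00105). The mouse gene Yap1 was not a DEG in EY, and its log2 fold change of 0.12 turned to -0.25 after median-of-ratios scaling. With quantile normalization Ccn1 in Y (1.40, adjusted p 0.0101) and Cdkn2a in EY (1.73, adjusted p 0.0239) kept their size but missed the p threshold, as they did without N mice 2 and 3 (adjusted p 0.0109 and 0.0296). DEGs of the main test numbered 3 of 4 in EY, 1 of 4 in Y and 0 of 4 in E, where limma voom also called 0 and 2 of 4 had an unadjusted p below 0.05. Over all genes the shares of DEGs were 18.3% in EY, 4.58% in Y and 1.2% in E.

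The TPM values were found to rest on the genomic span of each gene, introns included, for 8 of 8 keratins and within 1% for 99.1% of 21941 matched genes. This distorts comparisons between genes and, through the total each mouse is scaled to, shifts all genes of a mouse by a shared factor, so levels were recomputed per exon length for that purpose. On this scale the 49 keratin genes with a known exon length made 16.6 ± 3.06, 15.8 ± 2.11, 12.6 ± 3.83 and 8.78 ± 1.13% of transcripts (mean ± SD, here and below in the order N, E, Y, EY where 4 values follow each other). Stress keratins were a growing part of this shrinking total, at 11.8 ± 2.0, 16.3 ± 1.44, 22.7 ± 5.18 and 29.8 ± 3.75% of keratin transcripts. Within the stress keratins the Krt17 share was 5.44 ± 0.645% for E, 15.2 ± 5.12% for Y and 28.6 ± 5.37% for EY mice. The lowest EY mouse had 22.4% and the highest N mouse 6.02%. Simple keratins stayed a trace, with a mean of 0.0110% of keratin transcripts in N and 0.418% in EY.

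**Figure D2:**
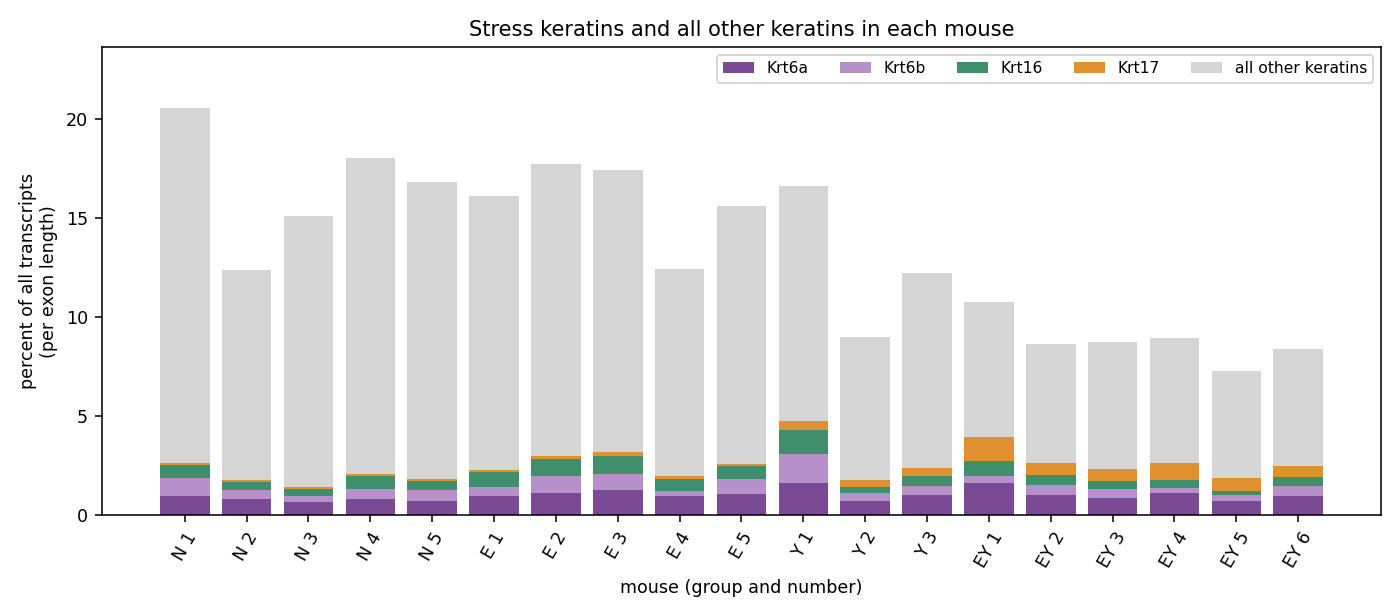
Stacked bars, 1 per mouse, give Krt6a, Krt6b, Krt16, Krt17 and all other keratins as a percent of all transcripts per exon length, ordered by group. All keratins together made 16.6% in N and 8.78% in EY on average.

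Among the 8 genes the order of levels per exon length in N was Krt6a (8004), Krt6b (5325), Krt16 (5103), Krt17 (965), Krt18 (6.05), Krt8 (5.07), Krt19 (3.30) and Krt7 (1.5). In EY it was Krt6a (10507), Krt17 (7548), Krt16 (4575), Krt6b (3837), Krt18 (197), Krt19 (116), Krt8 (63.9) and Krt7 (3.16). Krt17 was the lowest stress keratin in N and by mean ranked behind Krt6a in EY. Krt6b and Krt16 lay within their standard deviations in N and EY, as did Krt18 and Krt8 and then Krt19 in N and Krt18, Krt19 and Krt8 in EY, so the order of those neighbours is not settled. Krt6a and Krt17 in EY (SD 3049 and 2428) are not clearly apart either.

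Krt17 was the stress keratin that separated all 4 groups. Its TPM was 821, 725, 603, 580 and 687 in N mice 1 to 5 and 825, 1290.0, 1273, 853 and 836 in the E mice. The Y mice had 3378, 2460.4 and 2953 TPM, and the EY mice ran from 3958 to 8880.5 with a median of 4588. Every E mouse was above every N mouse, every Y mouse above every E mouse and every EY mouse above every Y mouse, although the E and N ranges nearly touched. How many of all genes separate groups in this way, here and for the keratins below, was not counted. Folds here are ratios of mean TPM, and log2 fold changes come from the limma fit to log2 TPM, so they do not convert exactly. Mean Krt17 was 8.05-fold higher in EY than in N (log2 fold change 2.96, 95% interval 2.53 to 3.39, adjusted p 6.15e-09) and 4.29-fold higher in Y than in N (2.10, 1.58 to 2.62, adjusted p 2.63e-05). E against N was 1.49-fold (0.55, 0.10 to 1.00, adjusted p 0.205) and was not a DEG. EY against Y was 1.88-fold (0.86, 0.36 to 1.36, adjusted p 0.0311), also not a DEG, so the step between the YAP groups is less certain than their distance from N. With 3 Y mice, that step rests on few values.

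Krt6a, Krt6b and Krt16 were abundant in every group and were DEGs in none of the 3 comparisons with N. Krt6a ranged from 7984.5 to 11944 TPM over the N mice, 11138 to 15784 over E, 8824 to 20385 over Y and 8751 to 20643 over EY. Group means were 9666, 13039, 14002 and 13066, and N overlapped E, Y and EY. Krt6a log2 fold changes against N were 0.43, 0.46 and 0.40 (E, Y, EY), with adjusted p of 0.475, 0.320 and 0.206. Krt6b had mean TPM of 6136, 7570, 9199.8 and 4522, and its log2 fold change in EY was -0.41 (adjusted p 0.420). Over the other settings tried, values in EY ranged from 0.02 to 0.54 for Krt6a and from -0.79 to -0.29 for Krt6b. Krt16 had means of 6234, 9320.4, 8792 and 5768, with -0.17 in EY (adjusted p 0.723) that turned to 0.08 with quantile normalization and 0.02 without EY mouse 5. Y mouse 1 was the highest Y mouse for Krt6a (20385), Krt6b (17462) and Krt16 (15951), and without it Krt6b and Krt16 in Y went to -0.20 and -0.27 from 0.40 and 0.29. None of these p-values shows that the levels were equal, and the means of Krt6b and Krt16 in Y stand on that mouse.

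Counted as a family, the 4 stress keratins gave 1 DEG (Krt17) in EY and in Y and 0 in E with limma, where Krt17 alone had an unadjusted p below 0.05 and limma voom called 0. Their median log2 fold change was 0.43 in Y (0.23 after median-of-ratios scaling and 0.25 without N mice 2 and 3) and 0.49 in E. In EY it was 0.11, which turned to -0.27 after median-of-ratios scaling. The family as a whole therefore had no clear direction in EY, and the change was that of Krt17.

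Sequence overlap limits how well these genes can be told apart. Of the 100-base windows of the exons, 30.6% of those of Krt6a and 30.6% of those of Krt6b occurred in another gene, mainly in each other, and 24.3% of Krt16 windows were shared, with Gm11597 and Krt14 the most frequent. None of the Krt17 windows was shared (0%). With 50-base windows the shares were 45.7% for Krt6a, 50.1% for Krt6b, 37.6% for Krt16 and 3.99% for Krt17. Gm49428, an antisense gene, lies wholly inside Krt6a and covers 37.1% of it, and it held 29.9% to 33.9% of the reads of both genes. The strand used for counting is not given in the sources used here, so reads of Krt6a and Gm49428 cannot be told apart. Mean TPM of Gm49428 was 12193 for N and 15772 for EY mice, a difference in step with that of Krt6a.

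The simple keratins Krt8 and Krt18, type II and type I partners that lie next to each other on chromosome 15, were scarce in N and E and variable in EY. Krt18 had 2.37, 9.75, 8.15, 2.30 and 2.31 TPM in the N mice and 3.70, 3.54, 0.171, 4.69 and 3.26 in the E mice. Y mice had 4.50, 5.94 and 31.2 TPM, and EY mice ran from 28 to 373 with a median of 131. All 6 EY mice were above all N and E mice, while Y mouse 3 fell inside the EY range. Krt18 rose in EY against N, with a ratio of mean TPM of 33.7 (log2 fold change 4.83, 95% interval 3.09 to 6.57, adjusted p 0.000129) and was not a DEG in Y (1.22, -0.88 to 3.32, adjusted p 0.463) or E (-0.85, adjusted p 0.738). E mouse 3 held 1 read of Krt18, a value that stood apart from its group, and without it the Krt18 log2 fold change of E against N was -0.09. Without Y mouse 3 that of Krt18 in Y against N was 0.36.

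Krt8 also had its highest values in EY, with wide scatter. N mice had 1.76, 7.0, 3.53, 1.14 and 0.570 TPM, E mice 0.493, 0.666, 0.169, 1.12 and 0.725, and Y mice 0.556, 0.163 and 6.12. EY mice had 87.2, 13.0, 50.4, 63.8, 4.06 and 1.60 TPM, so EY mice 5 and 6 lay inside the N range and the other 4 above it. The log2 fold change in EY against N was 3.04 (95% interval 0.89 to 5.20) with an adjusted p of 0.0231, and Krt8 was not a DEG. It became one at 3.71 (adjusted p 0.00422) without EY mouse 6. In Y against N Krt8 had -1.03 (-3.63 to 1.57, adjusted p 0.640), which ranged from -2.33 without Y mouse 3 to -0.05 without Y mouse 2, and in E -1.67 (-3.92 to 0.58, adjusted p 0.531). Of the 100-base windows of Krt8, 16.9% were shared, all with the pseudogene Krt8-ps (26.9% of 50-base windows), and Gm36026 overlaps it by 271 bases on the opposite strand.

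Krt19 was the simple keratin that rose in both YAP groups. It had 1.38, 3.06, 1.79, 1.06 and 1.27 TPM in the N mice, 0.697, 0.495, 0.252, 1.62 and 1.44 in the E mice and 36.5, 22.3 and 40.8 in the Y mice. EY mice ran from 32.7 to 115 with a median of 53.7. All Y and EY mice were above all N and E mice, and Y overlapped EY. The ratio of mean TPM was 19.4 for Y against N (log2 fold change 4.25, 95% interval 3.19 to 5.31, adjusted p 2.87e-05) and 35.9 for EY against N (5.04, 4.16 to 5.91, adjusted p 4.58e-08). E had a log2 fold change of -1.0 (-1.92 to -0.08, adjusted p 0.281), from 3 to 19 reads per mouse, so that value is loosely fixed. EY against Y was 0.79 (-0.24 to 1.81, adjusted p 0.342).

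Krt7 was the lowest of the 8 by TPM in EY and depended on which N mice were used. N mice had 0.296, 2.49, 2.42, 0.357 and 0.460 TPM, and E mice ranged from 0.342 to 0.618. Y mice had 0.486, 6.43 and 3.86, and EY mice ran from 1.04 to 4.51 with a median of 2.55. EY mice were all above the E mice, but N mice 2 and 3 lay inside the EY range. The log2 fold change was 1.37 in EY (95% interval 0.05 to 2.7, adjusted p 0.0910), 1.43 in Y (-0.17 to 3.02) and -0.65 in E, which turned to 0.33 without N mice 2 and 3, and none was a DEG. The Y value ranged from 0.73 to 2.46 when 1 mouse was left out and from 0.85 to 2.41 over the other settings.

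Reference promoters of Krt7, Krt8 and Krt18 were searched on both strands for GGAATG (bound by TEAD, the partner of YAP), TGANTCA (AP-1), GGGCGG (SP1) and TATAAA (the TATA box). Each covers 250 bases before and 50 after the transcript start in build GRCm38, older than the build the authors aligned to, and capitals mark motif matches.
Krt7: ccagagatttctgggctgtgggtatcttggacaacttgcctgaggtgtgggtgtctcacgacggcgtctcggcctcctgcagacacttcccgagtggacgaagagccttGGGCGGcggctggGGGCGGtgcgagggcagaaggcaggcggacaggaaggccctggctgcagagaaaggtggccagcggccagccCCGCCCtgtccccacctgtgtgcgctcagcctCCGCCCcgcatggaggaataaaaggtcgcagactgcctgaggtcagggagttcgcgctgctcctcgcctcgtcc
Krt8: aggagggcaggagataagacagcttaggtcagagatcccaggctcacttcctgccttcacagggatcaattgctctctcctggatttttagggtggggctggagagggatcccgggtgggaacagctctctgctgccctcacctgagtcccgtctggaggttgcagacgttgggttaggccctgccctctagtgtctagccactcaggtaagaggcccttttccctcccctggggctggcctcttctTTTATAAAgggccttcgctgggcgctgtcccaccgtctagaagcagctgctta
Krt18: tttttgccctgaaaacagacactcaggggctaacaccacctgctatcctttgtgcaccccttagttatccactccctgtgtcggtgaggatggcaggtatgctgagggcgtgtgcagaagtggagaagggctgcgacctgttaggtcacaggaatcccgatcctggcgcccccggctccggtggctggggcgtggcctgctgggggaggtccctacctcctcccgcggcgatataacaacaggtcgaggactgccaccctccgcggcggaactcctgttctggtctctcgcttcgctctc
They lie at chr15:101412153-101412452 (plus strand, 66.3% GC), chr15:102004293-102004592 (minus strand, 58% GC) and chr15:102027966-102028265 (plus strand, 61.3% GC), and the median over 32851 promoters was 52.7% GC. Krt7 had 4 SP1 matches, at -141, -128, -56 and -24 from the start. Krt8 had a TATA match on each strand, at -1 and -3, which overlap, and Krt18 had 0 matches. GGAATG and TGANTCA matched none of the 3. Over all promoters 14.7% had a TEAD match, 7.81% AP-1, 35.7% SP1 and 13.6% TATA, and a match or its absence does not show what binds. Krt6a, Krt6b, Krt16, Krt17 and Krt19 were not used in this search.

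As a family the 4 simple keratins gave 2 DEGs in EY (Krt18 and Krt19), 1 in Y (Krt19) and 0 in E with limma, where Krt19 alone had an unadjusted p below 0.05 and limma voom called 0. Median log2 fold changes of the family were 3.94, 1.32 and -0.93 for EY, Y and E. Without N mice 2 and 3 they were 4.64, 2.19 and -0.37, with Krt7 the added DEG in EY. Summed TPM averaged 10.7, 5.10, 53.0 and 268, and the N mean was raised by N mice 2 and 3 (22.3 and 15.9 TPM), as N mice 1, 4 and 5 had 5.80, 4.86 and 4.61. In bulk tissue a few cells with much simple keratin and many cells with a little cannot be told apart, and neither can fewer cells and less RNA per cell.

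**Figure D3:**
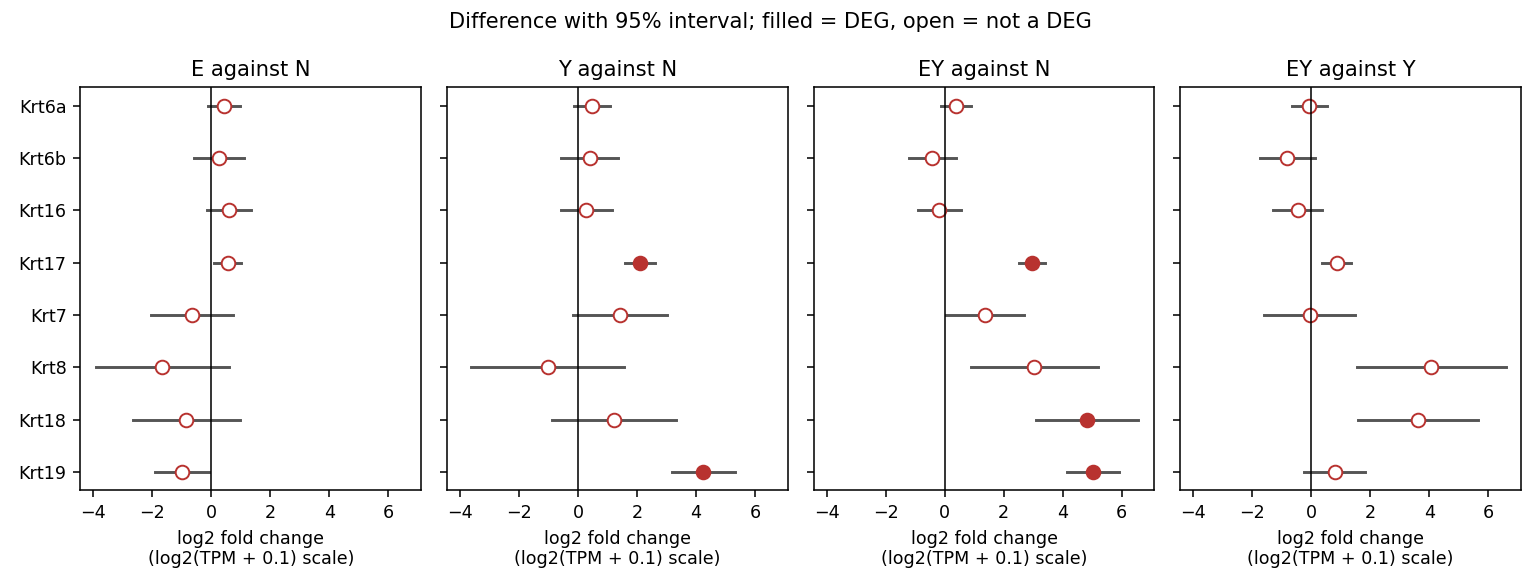
Log2 fold change with 95% interval of each of the 8 keratins for E, Y and EY against N and for EY against Y, with filled points for DEGs and open points for the others. Krt19 reached 5.04 in EY against N, and 0 of 8 were DEGs in EY against Y.

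Comparisons among E, Y and EY do not use the level of the N mice. EY against E gave 4 of 8 DEGs, all higher (12.8% of all genes, 7.82% higher and 4.99% lower), with log2 fold changes of 2.41 for Krt17, 4.71 for Krt8, 5.68 for Krt18 and 6.04 for Krt19 (adjusted p 1.38e-07, 0.00143, 3.61e-05 and 1.86e-08). Without E mouse 3 the Krt18 value was 4.91. Krt8 was not called by limma voom (adjusted p 0.0842), which called Krt16 instead at -1.04 (adjusted p 0.00925). Krt7 had 2.02 (adjusted p 0.0177) and became a DEG when only these groups were fitted (adjusted p 0.00155) and without Y mouse 1 (adjusted p 0.00567). Y against E gave 2 of 8, both higher (2.48% of all genes, 1.67% higher and 0.805% lower), with 1.55 for Krt17 and 5.25 for Krt19 (adjusted p 0.000737 and 1.22e-05), and Krt17 missed the threshold when only these groups were fitted (adjusted p 0.0119). EY against Y gave 0 of 8 with limma (2% of all genes, 1.07% higher and 0.928% lower) and 0 with limma voom, with 3 of 8 (Krt8, Krt17 and Krt18) at unadjusted p below 0.05. The largest there were 4.07 for Krt8 (95% interval 1.56 to 6.59, adjusted p 0.0414) and 3.61 for Krt18 (1.57 to 5.64, adjusted p 0.0268), and Krt18 became a DEG with a pseudocount of 1 TPM (3.46, adjusted p 0.00990).

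The interaction term asks how far EY departs from E and Y effects added on the log2 scale. It gave 0 of 8 with limma, against 0.176% of all genes (0.00879% higher and 0.167% lower), and 0 with limma voom, with 3 of 8 (Krt8, Krt18 and Krt19) at unadjusted p below 0.05. Values were 5.74 for Krt8 (95% interval 2.36 to 9.11, adjusted p 0.104), 4.46 for Krt18 (1.73 to 7.19, adjusted p 0.122), 1.79 for Krt19 (0.41 to 3.16, adjusted p 0.226) and 0.31 for Krt17 (-0.36 to 0.98, adjusted p 0.718). All 4 missed the threshold, and with intervals this wide a miss does not show that the effects add up. Leaving out 1 mouse moved the Krt17 value between 0.16 and 0.42.

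Because simple keratins also come from glands and ducts, markers of those cells were summed in every mouse. Gland genes (11 of 15 in the table, with Smgc, Muc19, Pip and Dcpp3 not analysed here) summed to 3.55, 63.8, 147, 0.859 and 0.872 TPM in the N mice, 1.82, 5.96, 2.03, 0.155 and 0.578 in the E mice and 4.55, 2.19 and 1.51 in the Y mice. The EY mice ran from 1.18 to 7.82 with a median of 2.61. N mice 2 and 3 thus carried gland transcripts, led by Dcpp1 (42.1 and 74.4 TPM, and 0 in all other mice) and Lipf (12.3 and 52.8), while Muc5b and Lpo stayed below 1 TPM in every mouse. They were also the N mice with most Krt7, Krt8, Krt18 and Krt19. All EY mice had lower gland sums than N mice 2 and 3, but higher ones than N mice 4 and 5. Whether gland tissue bears on the simple keratin levels was not tested. With N mice 2 and 3 left out, an alternative chosen after seeing the data, Krt7 became a DEG in EY against N (log2 fold change 2.36, adjusted p 0.00598) and in EY against E (adjusted p 0.00638), and Krt17, Krt18 and Krt19 remained DEGs. Of the 7 gland genes tested, limma called 0 in EY, Y and E against N and in EY against Y. Unadjusted p below 0.05 was met by 2 (Lipf and Muc5b), 0, 3 and 0 of them, and limma voom called 1 (Muc5b), 0, 0 and 0.

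Duct genes (12 of 12 in the table, 11 tested, Cldn4 the most abundant, Prom1 and Kit below 1 TPM in all mice) summed to 642, 651, 723, 715 and 861 TPM in the N mice. Group means were 719 ± 87.7, 943 ± 232, 1216 ± 206 and 1249 ± 265. In EY against N, 5 of 11 rose, Epcam (log2 fold change 1.85), Cldn3 (5.37), Cldn4 (1.24), Cldn7 (3.47) and Elf3 (2.05), and Krt23 fell (-1.30). Over all genes 12.6% were DEGs higher and 5.71% lower. The median of the 11 was 0.84 beside 0.33 for all genes, and 0.49 beside 0.01 after median-of-ratios scaling. Cldn4 had 0.86 after median-of-ratios scaling and was then no DEG. In Y, Cldn4 (1.08) and Elf3 (2.56) rose and Kit (-1.28) fell (3.47% of all genes were higher and 1.11% lower). Cldn4 in Y was no DEG after that scaling (0.88, adjusted p 0.0332) or without N mice 2 and 3 (1.04, adjusted p 0.0297), and Kit was none with quantile normalization or without those mice. Limma called 0 of 11 in E against N (5 at unadjusted p below 0.05, 1 by limma voom, Epcam) and 0 of 11 in EY against Y (4 and 1, Krt23). No measure of duct cells apart from these genes was made.

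**Figure D4:**
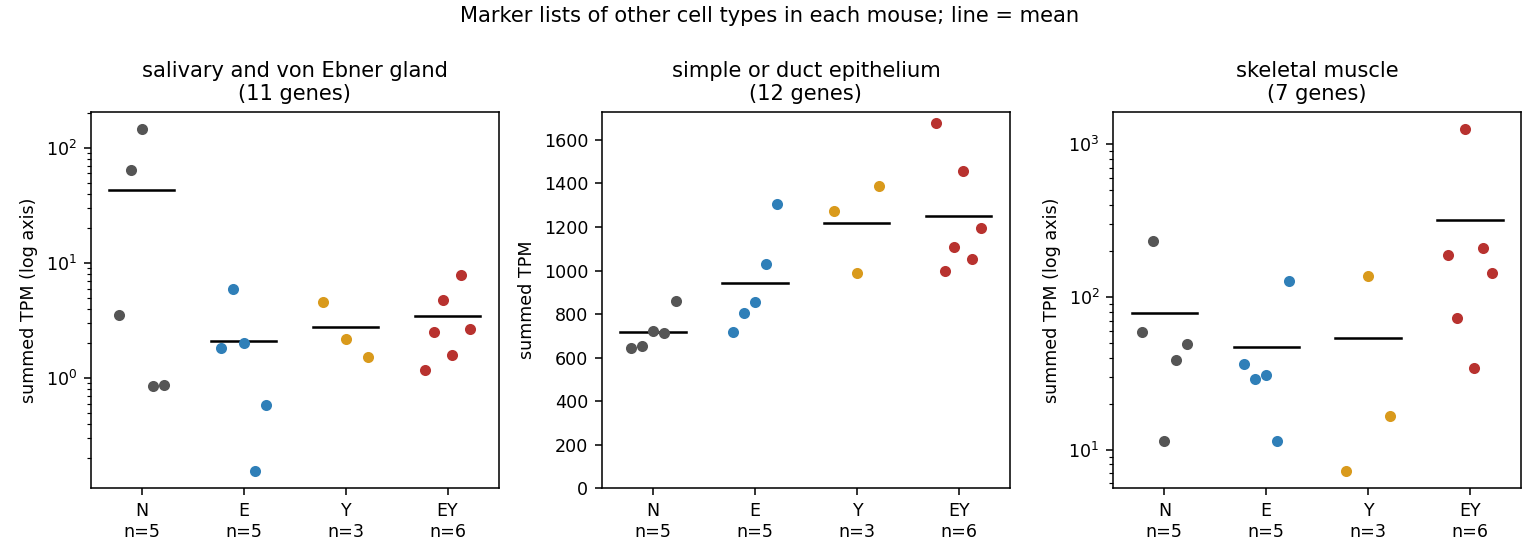
Summed TPM of gland (11 genes), duct (12 genes) and muscle (7 genes) markers (log axes for gland and muscle), with 1 dot per mouse and a line at the mean of N, E, Y and EY epithelia. Gland sums of N mice 2 and 3 were 63.8 and 147 TPM, and the muscle sum of EY mouse 3 was 1264 TPM.

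Keratinocyte markers (7 of 7) had mean sums of 110833, 99799, 82219 and 54569 TPM, with Krt13 the most abundant. Krt14 (1.43) and Dsg3 (1.41) rose and Krt4 (-1.61) and Krt13 (-1.75) fell in EY, and Dsg3 rose in Y (1.25), though it was no DEG there with quantile normalization. Limma called 0 of 7 in E, as did limma voom, with 0 at unadjusted p below 0.05. Taste markers (11 of 12 in the table, Pkd2l1 not analysed here, 9 tested) averaged 28.4, 25.9, 19 and 17.6 TPM, with Itpr3 the most abundant and 5 below 1 TPM in all mice. Tas1r1 (-1.80) and Pou2f3 (-1.43) fell in EY, and Tas1r1 was no DEG without N mice 2 and 3. Merkel markers (6 of 8 in the table, Atoh1 and Pou4f3 not analysed here, 5 tested) averaged 25.2, 22.5, 16.7 and 10.6 TPM, nearly all Isl1, and the other 5 were below 1 TPM in all mice. Limma called 0 of 5 in EY, with 2 (Isl1 and Piezo2) at unadjusted p below 0.05 and the same 2 by limma voom.

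Other tissue was also present in small amounts. Muscle markers (7 of 7, Acta1 the most abundant) averaged 78.2, 47.1, 53.8 and 319 TPM, with medians of 49.0, 30.7, 16.7 and 166. Each mean was raised by its highest mouse, namely N mouse 2 (233), E mouse 5 (128), Y mouse 2 (137) and EY mouse 3 (1264). The median log2 fold change of the muscle markers in EY was 1.78, with all 7 between 1.27 and 2.05. Limma called 0 of 7 in EY against N, E or Y and limma voom 0, while 1 (Myh2), 6 and 5 of the 7 had an unadjusted p below 0.05, all higher. Fibroblast markers (6 of 6) averaged 144, 80.6, 34.1 and 86.8 TPM, and Dcn fell in EY (-2.36). The median of the 6 in EY was 0.39 beside 0.33 for all genes, and it went to 0.02 after median-of-ratios scaling. Leukocyte markers (7 of 7, Lyz2 the most abundant) averaged 199.7, 175, 22.4 and 128 TPM, where N mouse 1 had 567. The sum was mostly Lyz2, which had 18.6 to 21.7 TPM of 19.6 to 24.4 over the Y mice, so it does not count leukocytes. By flow cytometry the paper reports markedly more CD45+ cells in YAP-activated epithelia, while Y had the lowest mean sum here. Median sums were 87.8 TPM in N and 121 TPM in EY, and the median log2 fold change of the 7 in EY was 0.98. Limma called 0 of these 7 in EY, with 1 (Cd3e) at unadjusted p below 0.05 and 0 by limma voom. Endothelium markers (7 of 7, 5 tested, Cldn5 the most abundant) averaged 2.90, 1.29, 0.719 and 3.83 TPM. Among the N mice the median was 1.98 and N mouse 1 had 7.99. These markers gave 0 DEGs in EY by limma, 0 at unadjusted p below 0.05 and 0 by limma voom. Melanocyte markers (4 of 5 in the table, Tyr not analysed here, 3 tested, Pmel the most abundant) averaged 6.19, 7.78, 6.17 and 7.02 TPM, and Dct fell in EY (-1.10). The median of the 3 was 0.16 in EY, which turned to -0.21 after median-of-ratios scaling, and Dct was no DEG without N mice 2 and 3.

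The expression table holds 49 keratin genes, of which 20 besides the 8 were fixed for comparison. These 20 moved mostly downward in EY against N. Krt14 rose and 11 fell, with a median log2 fold change of -1.29 beside 0.33 for all genes. Over all genes 12.6% were DEGs higher and 5.71% lower. The largest falls were in Krt10 (-5.73, from 751 to 15.3 TPM) and Krt76 (-5.49, from 3682 to 98.6 TPM). Krt4 (-1.61) and Krt13 (-1.75) fell less steeply. Krt5 had 0.98 (adjusted p 0.000670), just under the fold change limit, and became a DEG with quantile normalization (1.14) and without N mice 2 and 3 (1.05), but had 0.60 after median-of-ratios scaling (adjusted p 0.0165) and with limma voom. Mean TPM of Krt14 was 6048, 7789, 15605 and 16718, while that of Krt13 was 71112, 64482, 42244 and 20862. Krt5 had 3061, 3073, 5371 and 6005, and Krt4 had 28550, 22304, 16668 and 8977. In Y against N 3 of 20 fell, Krt10 (-2.36), Krt24 (-1.51) and Krt76 (-2.50), and 0 rose (1.11% of all genes were lower and 3.47% higher). Without N mice 2 and 3 only Krt10 was still a DEG (Krt24 -1.33, adjusted p 0.0162, and Krt76 -2.28, adjusted p 0.0227). Krt14 in Y was a DEG with quantile normalization (1.42, adjusted p 0.00982) and with limma voom (1.13, adjusted p 0.00753), which also called Krt78 lower. It was none after median-of-ratios scaling (adjusted p 0.0346) or without N mice 2 and 3 (1.27, adjusted p 0.0400). Limma called 0 of 20 in E against N, with 0 at unadjusted p below 0.05 and 0 by limma voom. EY against Y had 5 of 20 lower (Krt1, Krt10, Krt24, Krt76 and Krt78) and 0 higher, while limma did not call Krt13 (-0.99) or Krt4 (-0.85) there. Over all genes 0.928% were lower and 1.07% higher in EY against Y. Median-of-ratios scaling and quantile normalization each gave 6 of 20 lower and limma voom 8, Krt13 among them (-1.17, adjusted p 0.00209).

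Network partners of keratins comprised 12 desmosome, plakin and regulator genes, of which Pkp2 was the DEG in EY and in Y. Pkp2 rose in EY (log2 fold change 3.37, adjusted p 5.42e-07) and Y (2.09), with group means of 0.174, 0.102, 1.24 and 2.81 TPM. The median of the 12 was -0.13 in EY (-0.51 after median-of-ratios scaling) beside 0.33 for all genes. In EY against E, 8 of 12 had an unadjusted p below 0.05, 7 of them lower, while limma called Pkp2 and limma voom Pkp2 and Eppk1. Small changes were common in that comparison, where 5746 of all 22745 genes passed the limma adjusted p limit with no fold change limit. Limma called 0 of 12 in E, with 1 (Tchp) at unadjusted p below 0.05 and 0 by limma voom. Among inducers and regulators of stress keratins, 19 of 20 were tested (Il22 was not analysed here) and the EY median was 0.48 beside 0.33 for all genes (0.20 after median-of-ratios scaling and 0.14 with limma voom). Osm (3.86), Hbegf (1.58) and Epgn (1.31) rose in EY and Btc fell (-1.97). After median-of-ratios scaling Osm (3.65) was still a DEG, while Hbegf (1.20, adjusted p 0.0105) and Epgn (0.93) missed the thresholds, and without N mice 2 and 3 Osm did (3.43, adjusted p 0.0144). Ereg was called lower in EY after that scaling, with quantile normalization and with limma voom, which also called Gli2 lower, so median-of-ratios scaling turned 3 higher and 1 lower into 1 higher and 2 lower. In Y, Hbegf rose (1.81) and Btc fell (-1.30). Hbegf in Y had 1.61 after that scaling (adjusted p 0.0164) and 1.62 with limma voom, where it was a DEG (adjusted p 0.00399). Without N mice 2 and 3 Hbegf (1.56, adjusted p 0.0160) and Btc (-1.21, adjusted p 0.0364) in Y were not DEGs.

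Relations between the keratins were examined within the 6 EY mice alone, so that group differences could not make them. Of 28 pairs, 4 had an unadjusted exact permutation p below 0.05 by Pearson r and 1 had an adjusted p below 0.05. That pair was Krt6b and Krt19, with r -0.974 (exact permutation p 0.00139, adjusted p 0.0389), and its rank correlation was -1, for which the smallest exact permutation p that 6 mice allow (0.00278) becomes 0.0778 after adjustment, so it could not pass alone. After median-of-ratios scaling r was -0.973 and its adjusted exact permutation p 0.0778, so the pair then missed the threshold. Krt8 and Krt18 had r 0.909 (exact permutation p 0.0181, adjusted p 0.207), which went to 0.506 without the 2 mice farthest out. Krt6a and Krt16 had r 0.949 (exact permutation p 0.0222, adjusted p 0.207) and 0.366 without the 2 farthest, and Krt17 and Krt18 had r 0.827 (exact permutation p 0.0389, adjusted p 0.272). Without the 2 farthest, Krt17 and Krt18 had r 0.496. Krt6a and Krt6b had r 0.0174, and -0.652 without the 2 farthest. With 6 mice these values are weakly fixed.

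Across all 19 mice, genes most alike to each keratin were found among 16623 genes. Krt17 was closest to Tpi1 (r 0.982), Nop14 (0.982) and Litaf (0.981), and Krt6a to its overlapping gene Gm49428 (0.988), Supt6 (0.908) and Uba1 (0.902). Krt16 and Krt6b were closest to the same gene, Sgpp2 (0.881 and 0.859), followed by Aldh3b2 (0.874) and Aqp3 (0.851) for Krt16 and Ankrd13a (0.825) and Slc9a3r1 (0.818) for Krt6b. Among the simple keratins, Krt18 was closest to Cldn7 (0.935), Armc10 (0.935) and Gm37422 (0.931), and Krt19 to Maoa (0.962), Adss (0.962) and Ktn1 (0.961). Krt8 was closest to its overlapping gene Gm36026 (0.940), Elp6 (0.864) and Gm7893 (0.847), and Krt7 to Ddx50 (0.922), Atp5l (0.916) and Rpl32 (0.904). The values mix differences between groups with differences within them. Of these 24 keratin and gene pairs, 12 were again among the 3 highest after median-of-ratios scaling, all 3 for Krt6a and Krt8, 2 for Krt6b, 1 each for Krt16, Krt17, Krt18 and Krt19, and 0 for Krt7.

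In EY epithelia Krt17 and Krt19 stood far above N and E in every mouse, and Y epithelia showed the same with smaller means. Krt18 was above N in all 6 EY mice, and Krt8 in 4 of 6. The share of all genes that separate the groups like this was not counted. Krt6a, Krt6b and Krt16 kept levels that overlapped N, and E epithelia had no keratin of the 8 that passed the threshold.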

How the data were processed

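TPM values were used as deposited by the authors, whose processing notes name STAR 2.7.9, SAMtools 1.7 and HTSeq 0.13.5 on build GRCm39, and DESeq2 1.34.0 for their tests. Whole reads were recovered from the TPM for 100% of the 24680 genes above 0 (tolerance 0.05 read). The main test was limma 3.58.1 (R 4.3.3, eBayes with trend) on log2(TPM + 0.1), for genes that reached 0.1 TPM in 3 or more mice, with 4 group means fitted over 19 mice and Benjamini-Hochberg adjustment over all 22745 genes. Python 3.11.15 (numpy 2.4.6, pandas 2.3.3, scipy 1.17.1, matplotlib 3.10.9) did the rest. The scripts were tested on simulated data.

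The naming rule covered all 8 keratins, the 3 genes most alike to each over all mice (median of 1 TPM or more in some group), Krt4, Krt5, Krt10, Krt13, Krt14, the allele check genes, and the DEGs with the largest EY changes in each direction (2 for other keratins and partners, 3 for inducers). Keratinocyte, gland, duct, taste, Merkel, muscle, fibroblast, leukocyte, endothelium and melanocyte markers, other keratins, network partners, inducers and allele check genes were counted as lists, and further genes named from them were chosen after their values were seen. The members and lists were chosen with earlier results of these data known. Relations within EY used exact permutation of the 6 mice over 28 pairs.

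Alternatives tried were pseudocounts of 1 and 0.01 TPM, filters of 1 TPM or none, median-of-ratios scaling, quantile normalization, 3 N mice of a shared genotype, only the groups compared, a replicate block, robust eBayes, limma voom on recovered reads, other thresholds and leaving out each mouse. A fit without N mice 2 and 3 was chosen after seeing the data. Single-cell data and other assays of the series were not used here.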

Additional observations from a re-analysis of the deposited data

Results flagged for a closer look

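Krt18 in E mouse 3 was 0.171 TPM, which is 1 read, while the other E mice had 3.26 to 4.69 TPM. Its gap to the nearest E mouse was 0.876 of the range on the log2 scale, above the critical value of 0.71 for 5 mice. Of 24 sets of mice tested (8 keratins in N, E and EY), 1 passed this limit, and chance alone gives about 1 in 20. With so few reads, the difference from the other E mice was not tested further.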

How the results depend on the processing

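Outside the leave-one-out fits, 753 of 776 log2 fold changes of the keratins kept their direction and their side of the threshold, and 23 changed (2 weaker, 10 stronger and 11 reversed). Among the leave-one-out fits 1041 of 1064 did. Counts of DEGs are given below where they moved by over 1.5 times. In EY against N, log2 fold changes over the settings were 2.58 to 3.07 for Krt17, 4.31 to 5.58 for Krt18 and 4.43 to 5.39 for Krt19. For the changes below, the cause was not tested, except that looser limits call more genes and fewer mice give less power.

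With adjusted p below 0.05, DEGs numbered 1599 in Y against N, 414 in E against N, 865 in EY against Y (2 of the 8 keratins), 1016 in Y against E and 148 for the interaction. With no fold change limit they were 7248 in EY against N, 1935 in Y against N, 803 in EY against Y, 5746 in EY against E and 986 in Y against E. With only the groups compared they were 555 in Y against N, 145 in E against N, 198 in EY against Y and 187 in Y against E (1 keratin). The 3 N mice of Krt14-CreERT and LSL-rtTA gave 656 in Y against N, a pseudocount of 1 TPM gave 1 keratin in EY against Y, and limma voom gave 117 genes for the interaction.

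Reversed log2 fold changes were, with quantile normalization, Krt16 in EY against N (0.081) and Krt6a in EY against Y (0.11) and EY against E (0.15). For Krt6a in Y against E they were -0.055 with median-of-ratios scaling and -0.0562 with limma voom. Without N mice 2 and 3, chosen after seeing the data, Krt6b (-0.0277) and Krt7 (0.33) in E against N and Krt7 in the interaction (-0.38) reversed. Within EY, median-of-ratios scaling left 0 pairs past the threshold and turned r of Krt6a with Krt6b to -0.0976.

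Mouse numbers pair nothing in the labels, and 0 of 24 same-numbered pairs had r above 0.1 (-0.0426 to 0.0764). With the replicate block, Krt6a in EY against Y (0.0342), Krt6a (-0.053) and Krt6b (-0.0439) in Y against E reversed, and Krt8 in EY against N became a DEG (3.71), with no other call of a keratin changed. Number 6 occurs only in EY, so the block gives EY mouse 6 no weight.

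Leaving out each mouse in turn gave 3779 to 4212 DEGs in EY against N, 639 to 1039 in Y against N, 221 to 328 in E against N, 200 to 496 in EY against Y, 2575 to 3026 in EY against E, 266 to 577 in Y against E and 28 to 73 for the interaction. The low ends came without Y mouse 3 (Y against N, Y against E) and Y mouse 1 (EY against Y). Log2 fold changes that changed sign ranged from -0.36 to 0.0156 for Krt16 in EY against N, and in Y against N from -0.20 to 0.78 for Krt6b and -0.27 to 0.76 for Krt16. In EY against Y they ranged from -0.36 to 0.25 for Krt6a, -0.93 to 0.0948 for Krt16 and -1.09 to 0.65 for Krt7, and in EY against E from -0.18 to 0.069 for Krt6a. In Y against E they ranged from -0.28 to 0.32 for Krt6a, -0.47 to 0.51 for Krt6b, -0.87 to 0.16 for Krt16 and -0.66 to 1.62 for Krt8. Krt7 in the interaction ranged from -0.44 to 1.3, and r of Krt6a with Krt6b from -0.449 to 0.198.

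Simple keratins had 1 to 27 Krt18 reads and 2 to 13 Krt8 reads per E mouse, so their E values are limited by depth. The Y group has 3 mice, and the N mice differ in genotype. TPM shares sum to a constant, so changes are relative.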
